A study of Mus musculus with 18 samples.

Results

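Gad1, Gad2, Slc32a1, Dlx1, Dlx2, Dlx5, Dlx6os1 and Lhx6, which make and load the transmitter GABA or specify the interneurons that release it, were followed through mouse cortical neuron cultures that carried an added proteasome subunit. The 8 genes were listed by symbol, with earlier results of these data known, and all 8 were found among the 43629 gene IDs of the count table. Poly(A)-enriched RNA was sequenced in 18 libraries, 6 from each of 3 groups. Cultures received a lentivirus at 7 days in vitro and were collected 10 days later. The virus carried Psmb8, a catalytic subunit of the immunoproteasome, in the first group. It carried Psmb5, the subunit that fills the same position in the constitutive proteasome, in the second. In the third, the control group mSc, it carried the red fluorescent protein mScarlet. All cultures were neuronal cultures of cortex, and the labels give neither strain, age of the animals, promoter of the virus nor whether libraries came from separate animals, so p-values measure the spread between libraries, which may be partly technical. The treatment text of every sample names an Ifng construct, whereas the design text and the treatment tags name the 3 constructs above, and Ifng itself had 11 counts over all libraries together.

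GABA, the main inhibitory transmitter of the forebrain, is made from glutamate by glutamate decarboxylase, whose isoforms GAD67 and GAD65 are encoded by Gad1 and Gad2. The vesicular transporter VGAT, encoded by Slc32a1, loads it into synaptic vesicles. Cortical interneurons arise in the ganglionic eminences, where the homeobox factors of the Dlx family promote GABAergic fate and migration. Lhx6 acts downstream of Nkx2-1 in the interneurons of the medial eminence, which go on to express somatostatin or parvalbumin.

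Library totals ran from 15337511 to 21074229 counts, and levels are given below as CPM, each library's counts scaled by TMM to a common library size. The constructs were visible in the data: Psmb8 averaged 887 ± 198 CPM in the Psmb8 group, 5.03 ± 5.48 CPM in the Psmb5 group and 6.28 ± 7.76 CPM in the mSc group (SD, n = 6 each), and Psmb5 averaged 451 ± 113 CPM in the Psmb5 group, 48.3 ± 1.90 CPM in the Psmb8 group and 42.9 ± 1.49 CPM in the mSc group. Replicates are numbered 1 to 6 in each group, and libraries with the same number deviated from their group means together, so each comparison is also given with the number as a block. The libraries of number 1 stood apart in every group: the summed level of 10 astrocyte markers was 4415 CPM in Psmb8, 4374 CPM in Psmb5 and 5214 CPM in mSc, against 1427 to 2031 CPM in the other 15 libraries.

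Markers of the labelled cell type were abundant. The summed level of 10 pan-neuronal genes lay between 4446 and 5589 CPM in Psmb8, between 4331 and 5377 CPM in Psmb5 and between 4370 and 5570 CPM in mSc libraries, and that of 15 excitatory cortical markers between 2286 and 3401 CPM over all libraries. The 8 GABAergic genes together summed to between 551 and 989 CPM in Psmb8, between 482 and 742 CPM in Psmb5 and between 493 and 793 CPM in mSc. Excitatory neurons, GABAergic neurons, astrocytes and oligodendrocyte-lineage cells were therefore all represented by their markers. In such bulk samples, fewer cells of a type and less RNA per cell cannot be told apart.

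Levels of different genes can be set side by side only per length, here as CPM per kilobase of the union of annotated exons, averaged over the 18 libraries. Slc32a1 stood highest at 43.9 CPM per kb, before Gad1 at 35.4 and Gad2 at 23.6 CPM per kb. Dlx1 followed at 7.88 and Lhx6 at 4.37 CPM per kb. Dlx6os1 had 2.67, Dlx5 2.07 and Dlx2 1.82 CPM per kb. Slc32a1 and Gad1 exchanged ranks 1 and 2 between libraries, Gad2 held rank 3 and Dlx1 rank 4 in all 18, and the other 4 genes exchanged places among themselves. The enzymes and the transporter thus lay above all the fate genes in every library of all 3 groups.

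The coordinates are those of GENCODE's M21 annotation of GRCm38, and the build the counts were made on may differ. Gad1 (ENSMUSG00000070880) lies at chr2:70553072-70602014 on the plus strand and Gad2 (ENSMUSG00000026787) at chr2:22622205-22693874 on the plus strand. The vesicular transporter gene Slc32a1 (ENSMUSG00000037771), of 2 exons, lies at chr2:158610767-158615748 on the plus strand. Dlx1 (ENSMUSG00000041911) at chr2:71528113-71533981, plus strand, and Dlx2 (ENSMUSG00000023391) at chr2:71543408-71546754, minus strand, form a convergent pair. Dlx5 (ENSMUSG00000029755) at chr6:6877805-6882085 and the long noncoding RNA Dlx6os1 (ENSMUSG00000090063) at chr6:6820189-6871592 neighbour each other on the minus strand, and Dlx6 lies inside the span of Dlx6os1 on the opposite strand. Lhx6 (ENSMUSG00000026890) lies at chr2:36081953-36105408 on the minus strand. Where transcripts overlap, reads may have been assigned to either gene, because the strand setting of the counting is not given in the sources used here. The antisense gene Dlx1as shares 335 exon bases with Dlx1 and was itself given 64 to 112 counts per library. Slc32a1 shares 697 exon bases with Gm14205, which had 12 counts over all libraries, and no exon base is shared by Dlx6os1 and Dlx6.

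**Figure D1:**
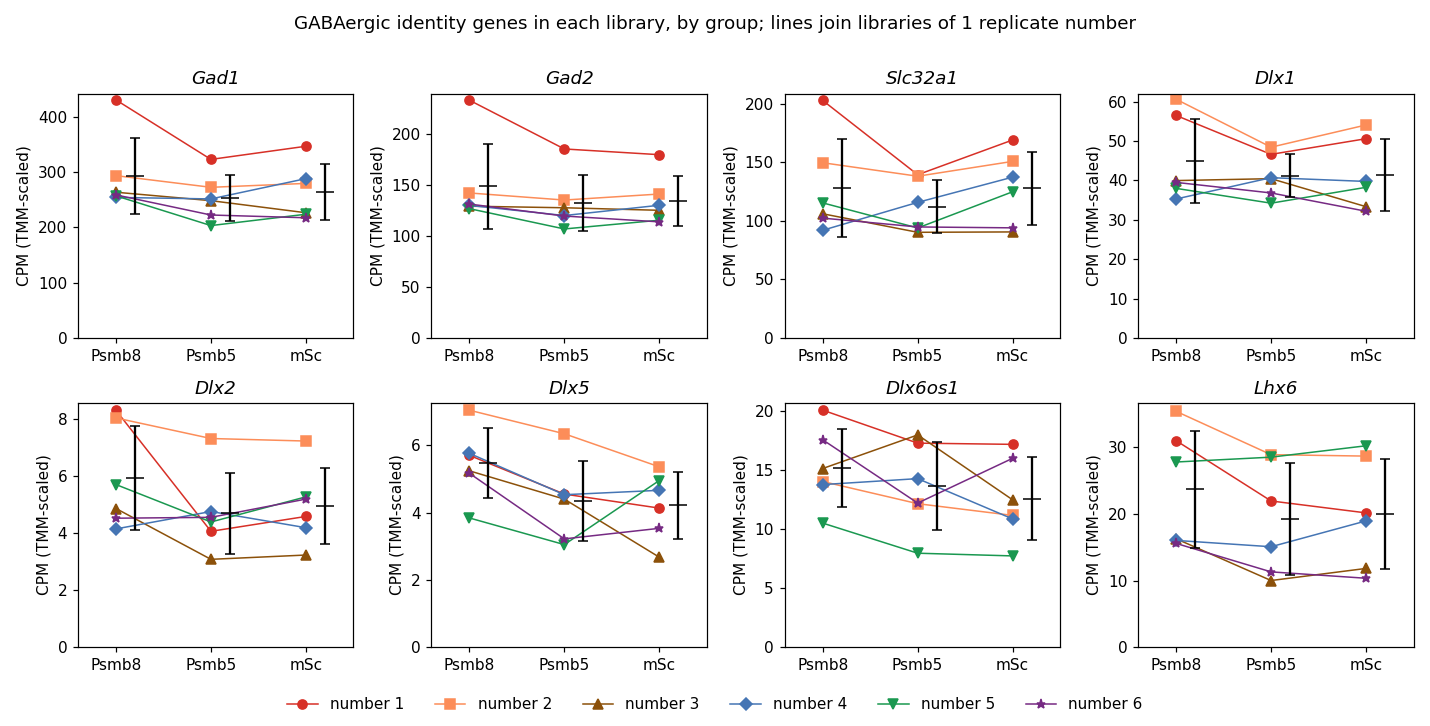
Level of each of the 8 genes in CPM (vertical axes, each with its own scale) in the Psmb8, Psmb5 and mSc libraries. Points are libraries, coloured lines join libraries with the same replicate number (each number with its own colour and marker), and black marks are the mean ± SD of 6 libraries. The groups overlap for every gene, and the Psmb8 library of number 1 stands alone at 431 CPM for Gad1 and 233 CPM for Gad2.

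Gad1, the gene of the GAD67 isoform that makes most of the basal GABA of neurons, had a lowest, median and highest level of 254, 261 and 431 CPM in Psmb8, of 203, 249.97 and 323 CPM in Psmb5, and of 217, 253 and 347 CPM in mSc libraries. The 3 groups overlapped, and the highest library of each carried number 1. Its means were 293 ± 69.0 CPM in Psmb8, 254 ± 41.8 CPM in Psmb5 and 264 ± 50.8 CPM in mSc (SD, n = 6 each). The edgeR quasi-likelihood fit gave a log2 fold change of 0.15 (SE 0.15) for Psmb8 against mSc, -0.06 (SE 0.15) for Psmb5 against mSc and 0.21 (SE 0.15) for Psmb8 against Psmb5, each with an adjusted p of 1. Blocked by replicate number, the same differences were 0.15 (SE 0.05, adjusted p = 0.275), -0.05 (SE 0.05, adjusted p = 0.877) and 0.20 (SE 0.05, adjusted p = 0.238). Gad1 was higher in Psmb8 than in Psmb5 in all 6 same-numbered pairs, which was so for 2.3% of the tested genes. Against mSc it was higher in 5 pairs, number 4 being the exception. Without the Psmb8 library of number 1, the unblocked log2 fold change of Psmb8 against mSc was 0.01. That fit kept the mSc library of number 1, the highest of its group. In blocked fits with 1 number left out, which keep the pairs whole, the difference ran from 0.11 to 0.21.

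Gad2, the gene of the synaptic GAD65 isoform, followed Gad1 closely. Its lowest, median and highest levels were 127, 131 and 233 CPM in Psmb8, 107, 124 and 185 CPM in Psmb5, and 114, 128 and 179.8 CPM in mSc libraries. Number 1 was again the highest in each group, apart from which the Psmb8 libraries spanned 127 to 142 CPM. The blocked log2 fold change was 0.13 (SE 0.04, adjusted p = 0.244) for Psmb8 against mSc, -0.02 (SE 0.04, adjusted p = 0.945) for Psmb5 against mSc and 0.16 (SE 0.04, adjusted p = 0.297) for Psmb8 against Psmb5. Like Gad1 it was higher in Psmb8 than in Psmb5 in 6 of 6 pairs. Without the block the 3 differences were 0.15, -0.02 and 0.17, each with an adjusted p of 1. Without the Psmb8 library of number 1, the first of these unblocked values was -0.02, in a fit that kept the mSc library of that number. In blocked fits with 1 number left out, Psmb8 against mSc ran from 0.08 to 0.16.

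The isoforms kept a narrow ratio. Gad1 had 1.98 ± 0.08 times the CPM of Gad2 in Psmb8, 1.93 ± 0.12 times in Psmb5 and 1.96 ± 0.14 times in mSc libraries (SD, n = 6 each). Over the 18 libraries the ratio lay between 1.74 and 2.22, and the groups overlapped. Their log2 levels correlated at r = 0.96 (Spearman's rho = 0.96) over the 18 libraries, which share 6 replicate numbers, and at r = 0.78 after the means of number and group were removed. The windows from 250 bases before to 50 bases after the RefSeq start of the 2 genes are shown because of all pairs of the 8 these genes correlated most closely over the libraries. The motif TAATTA, a core that homeodomain factors such as DLX proteins bind, is in neither window. It was searched on both strands, which for this palindrome read the same. Both lie on the plus strand of GRCm38.p6.
Gad1 chr2:70561879-70562178: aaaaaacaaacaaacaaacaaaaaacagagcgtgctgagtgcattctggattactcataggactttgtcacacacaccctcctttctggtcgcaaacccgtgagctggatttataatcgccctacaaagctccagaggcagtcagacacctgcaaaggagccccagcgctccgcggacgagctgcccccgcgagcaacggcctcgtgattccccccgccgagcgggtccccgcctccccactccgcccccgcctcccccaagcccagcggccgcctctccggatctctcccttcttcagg
Gad2 chr2:22622077-22622376: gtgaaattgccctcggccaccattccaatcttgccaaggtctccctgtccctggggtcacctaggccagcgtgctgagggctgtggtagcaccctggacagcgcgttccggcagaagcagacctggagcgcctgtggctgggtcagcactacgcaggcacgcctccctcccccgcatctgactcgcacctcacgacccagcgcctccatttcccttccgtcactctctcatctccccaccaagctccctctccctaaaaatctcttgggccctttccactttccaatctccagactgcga

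Slc32a1 encodes the transporter that fills vesicles with GABA and glycine. The lowest, median and highest libraries had 92.0, 111 and 203 CPM in Psmb8, 90.3, 105 and 139 CPM in Psmb5, and 90.6, 131 and 169 CPM in mSc. The groups overlapped over most of their range, and number 1 was the highest library in each. Psmb8 and mSc had nearly the same mean, 128 ± 41.7 CPM and 128 ± 31.2 CPM (SD, n = 6 each), with a blocked log2 fold change of -0.0089 (SE 0.08, adjusted p = 0.984). For Psmb5 against mSc the blocked value was -0.18 (SE 0.08, adjusted p = 0.685). There the level was lower in 5 of 6 pairs, a count that was not set against all tested genes. For Psmb8 against Psmb5 the blocked value was 0.17 (SE 0.08, adjusted p = 0.644), with a higher level in 5 of 6 pairs. Without the block the values were 0.0032, -0.19 and 0.19, each with a standard error of 0.19 and an adjusted p of 1. Set against Gad1, Slc32a1 had 0.432 ± 0.0548 times its CPM in Psmb8, 0.442 ± 0.0480 times in Psmb5 and 0.482 ± 0.0606 times in mSc, with overlapping ranges.

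Dlx1 and Dlx2 encode neighbouring homeodomain factors that act together in interneuron progenitors, and Dlx1 stays on in a share of mature interneurons. Dlx1 had a lowest, median and highest level of 35.3, 39.7 and 60.6 CPM in Psmb8, 34.2, 40.6 and 48.4 CPM in Psmb5, and 32.2, 39.0 and 54.1 CPM in mSc libraries. Number 2 held the highest library in every group. The blocked log2 fold change was 0.12 (SE 0.06, adjusted p = 0.533) for Psmb8 against mSc, 0.0052 (SE 0.06, adjusted p = 0.996) for Psmb5 against mSc and 0.11 (SE 0.06, adjusted p = 0.726) for Psmb8 against Psmb5. Without the block the 3 values were 0.12, -0.0037 and 0.13 with an adjusted p of 1 each. With 1 library left out, the unblocked value for Psmb8 against mSc ran from 0.02 without the Psmb8 library of number 2 to 0.21 without the mSc library of that number. Dlx1 was higher in Psmb8 in 4 of 6 pairs against each of the other groups.

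Dlx2 was far scarcer, with a lowest, median and highest level of 4.15, 5.29 and 8.32 CPM in Psmb8, 3.08, 4.48 and 7.32 CPM in Psmb5, and 3.23, 4.89 and 7.24 CPM in mSc libraries. The groups overlapped, and at 1 CPM a library held only about 15 to 21 counts, so counting error weighs on this gene. Its blocked log2 fold change was 0.26 (SE 0.13, adjusted p = 0.506) for Psmb8 against mSc, -0.08 (SE 0.14, adjusted p = 0.939) for Psmb5 against mSc and 0.34 (SE 0.13, adjusted p = 0.553) for Psmb8 against Psmb5. The unblocked value for Psmb8 against mSc, 0.26, ran from 0.14 without the Psmb8 library of number 1 to 0.40 without the mSc library of number 2. The Psmb8 value came unevenly from the pairs, from -0.20 in number 6 to 0.85 in number 1.

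Dlx5, a homeobox gene of the linked cluster on chromosome 6 that acts in later interneuron differentiation, had a lowest, median and highest level of 3.84, 5.48 and 7.05 CPM in Psmb8, 3.05, 4.47 and 6.35 CPM in Psmb5, and 2.68, 4.40 and 5.36 CPM in mSc libraries. Its largest Psmb8 values lay above every mSc library, but the groups overlapped. Of the 8 genes it had the largest unblocked log2 fold change for Psmb8 against mSc, 0.37 (SE 0.19, adjusted p = 1), and the blocked value was 0.36 (SE 0.14, adjusted p = 0.333). Against Psmb5, Dlx5 was higher in Psmb8 in 6 of 6 pairs, with a blocked value of 0.34 (SE 0.14, adjusted p = 0.575). Psmb5 against mSc gave 0.02 (SE 0.14, adjusted p = 0.992), and its pairs ran from -0.70 to 0.71.

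Dlx6os1, also called Evf2, is a long noncoding RNA transcribed across the Dlx5 and Dlx6 locus that is known in mouse for modulating the expression of its neighbours. It had a lowest, median and highest level of 10.5, 14.6 and 20.1 CPM in Psmb8, 7.96, 13.2 and 17.99 CPM in Psmb5, and 7.73, 11.8 and 17.2 CPM in mSc libraries. The groups overlapped, yet within each replicate number Psmb8 stood above mSc. The 6 differences lay between 0.13 and 0.44 on the log2 scale and averaged 0.29 ± 0.11 (SD), and being higher in 6 of 6 pairs was true of 3.18% of the tested genes. The fitted log2 fold change was 0.27 (SE 0.20, adjusted p = 1) without the block and 0.28 (SE 0.09, adjusted p = 0.223) with it, and the unblocked value was as low as 0.16 without the mSc library of number 5. For Psmb5 against mSc the blocked value was 0.12 (SE 0.09, adjusted p = 0.829), and for Psmb8 against Psmb5 it was 0.16 (SE 0.09, adjusted p = 0.725).

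RefSeq gives Dlx6os1 2 starts, both on the minus strand of GRCm38.p6, and their windows are shown because the sequence around them differed from that of the other genes. The motif TAATTA, in capitals, occurs 2 times in the first window, with first bases 121 and 177 counted from the 5′ end, and once in the second, at base 77. None of the 8 windows found for Gad1, Gad2, Slc32a1, Dlx1, Dlx2 and Lhx6 holds it, while 1738 of 32851 windows of this length in the table do (5.29%). The Dlx6os1 windows had a GC content of 35.7% and 35.3%, against 48.7% to 69.3% in the other 8 and a median of 52.7% over the table. A match is a description of these letters and marks no bound site.
Dlx6os1 chr6:6869484-6869783: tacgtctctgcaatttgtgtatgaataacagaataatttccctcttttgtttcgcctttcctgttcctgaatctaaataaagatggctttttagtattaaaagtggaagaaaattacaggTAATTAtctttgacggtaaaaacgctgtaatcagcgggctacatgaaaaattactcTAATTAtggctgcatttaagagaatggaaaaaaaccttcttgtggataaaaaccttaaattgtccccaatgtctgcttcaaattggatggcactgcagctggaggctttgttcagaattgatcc
Dlx6os1 chr6:6861634-6861933: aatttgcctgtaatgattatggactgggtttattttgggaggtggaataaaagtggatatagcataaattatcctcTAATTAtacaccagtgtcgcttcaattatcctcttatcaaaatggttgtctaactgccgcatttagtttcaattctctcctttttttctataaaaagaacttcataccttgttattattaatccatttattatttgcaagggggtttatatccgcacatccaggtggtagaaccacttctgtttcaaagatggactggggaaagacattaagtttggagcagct

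Lhx6, the LIM-homeobox factor of interneurons from the medial ganglionic eminence, varied most from library to library. Its lowest, median and highest levels were 15.6, 22.0 and 35.4 CPM in Psmb8, 10.0, 18.5 and 28.9 CPM in Psmb5, and 10.3, 19.6 and 30.2 CPM in mSc libraries. Each group held both high and low libraries, so the 3 ranges lay over each other. The unblocked log2 fold change for Psmb8 against mSc was 0.24 (SE 0.32, adjusted p = 1), and it ran from 0.09 without the Psmb8 library of number 2 to 0.40 without the mSc library of number 5. With the block it was 0.26 (SE 0.09, adjusted p = 0.282), and for Psmb8 against Psmb5 it was 0.32 (SE 0.09, adjusted p = 0.319). Psmb5 against mSc gave -0.06 (SE 0.09, adjusted p = 0.926). Lhx6 was higher in Psmb8 in 4 of 6 pairs against mSc and in 5 of 6 against Psmb5.

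**Figure D2:**
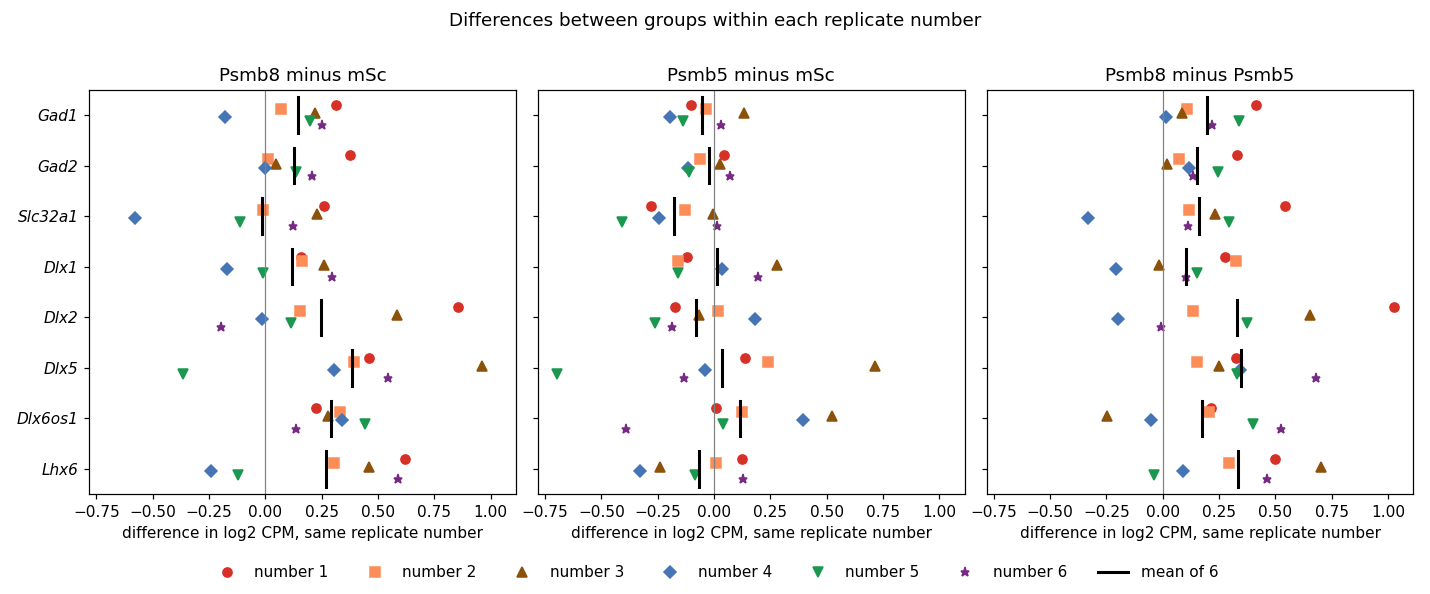
Difference in log2 CPM between libraries with the same replicate number for each of the 8 genes, in 3 panels for Psmb8 minus mSc, Psmb5 minus mSc and Psmb8 minus Psmb5. Points are the 6 numbers, the bar is their mean and the line at 0 marks no difference; Dlx6os1 lies above 0 in all 6 pairs of Psmb8 and mSc.

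None of the 8 genes passed an adjusted p of 0.05 in any comparison with edgeR, with or without the block, nor with DESeq2 in either form or limma-voom with the block, run on the same filtered table. Members were called in the blocked fit under other settings: 3 for Psmb8 against mSc (Gad1, Dlx6os1 and Lhx6), 1 for Psmb5 against mSc (Slc32a1) and 3 for Psmb8 against Psmb5 (Gad1, Slc32a1 and Lhx6) without the filter on low counts, and Gad1 in both comparisons of Psmb8 without number 4. For Psmb8 against mSc, 0.00638% of the 15671 tested genes passed without the block, which was Psmb8 itself, and 0.325% passed with it. At an unadjusted p under 0.05, 0 of the 8 passed without the block, against 2.17% of all genes. With the block 5 passed, all higher in Psmb8 (Gad1, Gad2, Dlx5, Dlx6os1 and Lhx6), where 5.44% of all tested genes passed in that direction. The median log2 fold change of the 8 was 0.20 in both fits, beside medians over all genes of 0.0004 without the block and 0.0008 with it, and it was 0.09 unblocked without the Psmb8 library of number 1 and 0.12 in the blocked fit without all 3 libraries of that number.

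For Psmb5 against mSc the share of all genes called was 0.00638% in either fit, and without the block this was Psmb5 itself. No member had an unadjusted p under 0.05 without the block, against 0.944% of all genes, and with the block Slc32a1 alone did, on the lower side, as did 3.47% of all genes. The median of the 8 was -0.03 without the block and -0.04 with it. For Psmb8 against Psmb5, 0.0128% of all genes were called without the block, namely Psmb5 and Psmb8, and 0.0383% with it. At an unadjusted p under 0.05 none of the 8 passed without the block, against 1.33% of all genes, and 6 passed on the higher side with it (Gad1, Gad2, Slc32a1, Dlx2, Dlx5 and Lhx6), against 3.73% of all genes. The median of the 8 was 0.20 without the block and 0.18 with it, and 0.06 without the block and without the Psmb8 library of number 1. In blocked fits with 1 number left out, the median ran from 0.15 to 0.25. The comparisons with mSc share the mSc libraries, and both comparisons of Psmb8 share the Psmb8 libraries. Since the 8 genes were correlated with each other, these counts are not 8 separate results. The 8 and the lists below were also chosen with earlier results of these data known. Setting their counts beside the shares of all genes is therefore a description and no test.

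The pairs were not alike. In number 1 all 8 genes were higher in Psmb8 than in mSc, with a median difference of 0.34 on the log2 scale, and in number 3 all 8 were, with a median of 0.27. Numbers 2 and 6 had 7 genes higher and medians of 0.16 and 0.23. Number 5 was divided, with 4 genes higher and a median of 0.05. In number 4 only Dlx5 and Dlx6os1 were higher, the median was -0.09 and Slc32a1 was the lowest at -0.58. Counting single genes, being higher in Psmb8 than in mSc in at least 4, 5 or 6 pairs held for 36.3%, 14.3% and 3.18% of the tested genes, and being higher in Psmb8 than in Psmb5 for 35.2%, 12.7% and 2.3%. For Psmb8 and Psmb5 the numbers 1 to 6 had 8, 8, 6, 4, 7 and 7 genes higher in Psmb8, number 4 again having the fewest. For Psmb5 and mSc they had 4, 4, 5, 3, 1 and 5 genes higher in Psmb5.

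**Figure D3:**
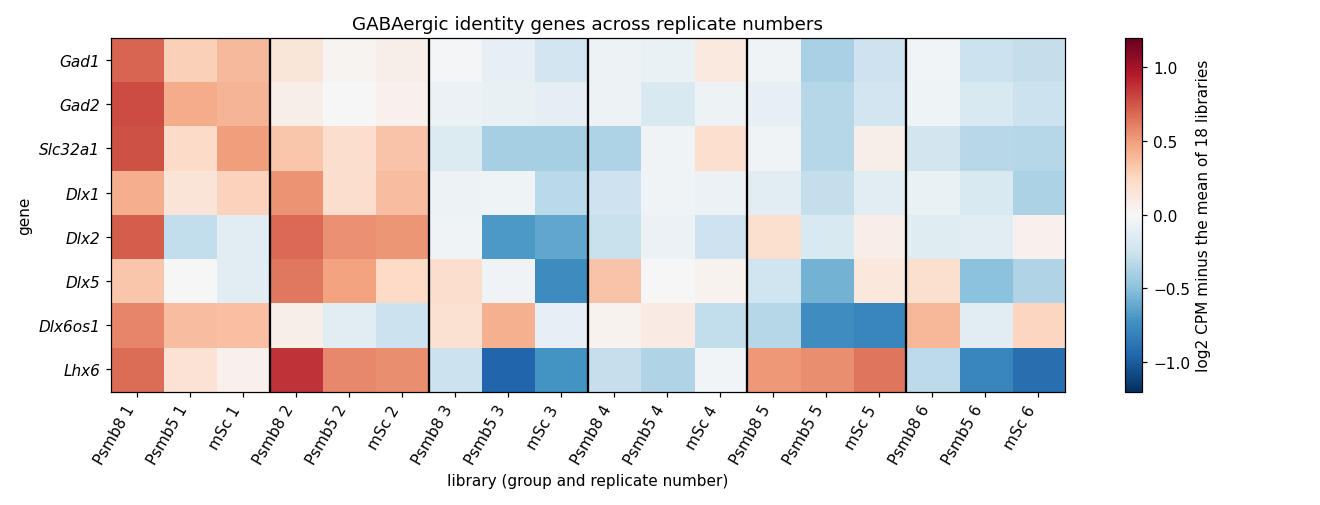
Heat map of log2 CPM minus the mean of the 18 libraries for the 8 genes (rows), with libraries in columns ordered by replicate number and, within a number, Psmb8, Psmb5 and mSc. Columns of 1 number resemble each other: number 1 is high for Gad1, Gad2, Slc32a1 and Dlx6os1, and numbers 2 and 5 are high for Lhx6.

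All 8 genes differed between numbers in an edgeR quasi-likelihood F test adjusted over all genes, as did 64.3% of the tested genes, with adjusted p-values from 8.61e-09 for Gad2 to 0.0242 for Dlx5. Of the sum of squares of log2 CPM, number held 88.8% and group 6.08% for Gad2, and number held 87.1% and group 6.17% for Lhx6. Dlx5 was at the other end, with 46.3% for number, 22.8% for group and 30.8% for the rest. Over all tested genes the medians were 66.0%, 4.69% and 26.2%. Number has 5 degrees of freedom and group 2, and per degree of freedom number held more than group for 7 of the 8 genes, whereas for Dlx5 it held 9.27% and group 11.4%.

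The genes did not follow 1 order of numbers. Gad1 was highest in number 1 at 367 ± 56.6 CPM and lowest in number 5 at 228 ± 27.2 CPM (SD, n = 3 libraries, 1 of each group), a ratio of 1.61. Gad2 and Dlx6os1 had the same extremes, with ratios of 1.71 and 2.08, and Slc32a1 was 1.78 times higher in number 1 than in number 3. Number 2 was highest for Dlx1, Dlx2, Dlx5 and Lhx6. Lhx6 had the widest span, 31.0 ± 3.82 CPM in number 2 and 28.9 ± 1.25 CPM in number 5 against 12.7 ± 3.23 CPM in number 3 and 12.4 ± 2.79 CPM in number 6, a ratio of 2.499 between its extremes. Dlx6os1 ran otherwise, at 18.2 ± 1.65 CPM in number 1, 15.3 ± 2.76 CPM in number 6 and 8.73 ± 1.54 CPM in number 5. Relative to Gad1, Lhx6 had 0.128 ± 0.0173 times its CPM in number 5 and 0.0514 ± 0.0108 times in number 3.

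Astrocyte markers moved with number 1. Beside their sum given above, 12 further genes of GABA and glutamine handling, among them astrocytic transporters and glutamine synthetase, summed to 2775 to 3146 CPM in the 3 libraries of number 1 and to 1625 to 1880 CPM in the other 15. The 8 GABAergic genes summed to 742 to 989 CPM in number 1 and to 482 to 711 CPM elsewhere. Excitatory markers summed to 3013 to 3401 CPM in number 1 and to 2286 to 3155 CPM elsewhere, with overlap. Oligodendrocyte-lineage markers, at 781 to 1005 CPM in number 1 and 251 to 1126 CPM elsewhere, and pan-neuronal genes, at 5243 to 5409 CPM in number 1, lay within the range of the others. Microglia markers summed to 17.1 to 20.9 CPM in number 1 and 20.8 to 38.4 CPM elsewhere. No marker of these lists was at 0 in every library, but some were close to it, such as Tmem119 at a mean of 0.0033 CPM. Among the microglia markers Cd68 averaged 26.1 CPM and Aif1 1.37 CPM, and the others averaged at most 0.247 CPM. The part of cell composition in the levels of the 8 genes was not tested.

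Across the 18 libraries 26 of the 28 pairs of genes correlated positively in log2 CPM, from -0.37 to 0.96 with a median of 0.59. After number and group means were removed the values ran from -0.50 to 0.87 with a median of 0.35, again with 26 positive. Gad1 and Slc32a1 correlated at 0.87 before and 0.87 after that step. The convergent neighbours Dlx1 and Dlx2 correlated at 0.68. Dlx6os1 and Lhx6 went opposite ways, at r = -0.37 (rho = -0.32) over libraries and -0.50 after the step. These are descriptions of libraries that share numbers, depth and composition.

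Genes whose levels most resembled the 8 were ranked by Pearson's r with the mean of their standardized log2 levels, over 18 libraries and 13094 other genes, whose median r was -0.02. The first was Erbb4, the neuregulin receptor of interneurons, at r = 0.90 (rho = 0.84), followed by the proteoglycan gene Spock3 at 0.90 (rho = 0.88). Adamts15, Col26a1, Cryzl2 and Crhbp had 0.87 each, and Cntnap2, Cybrd1, Rcan2 and Slc35f4 had 0.86 each. Single genes had other nearest neighbours, a ranking added after the values were seen. Slc32a1 was nearest to Cntnap2 at 0.93, Lhx6 to Mmp2 at 0.95 and Dlx6os1 to Igf1 at 0.89. For Gad2 the nearest was Gm2a at 0.93. For Dlx5 it was Stmn4 at 0.89, then Pigyl at 0.843 and Zfp551 at 0.835, with the interneuron peptide gene Sst at rank 4 (0.826).

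Other genes of the same biology were followed as lists. Of 12 genes of GABA handling (uptake, breakdown and glutamine supply) 9 were tested and 0 were called by edgeR in any comparison or fit; at an unadjusted p under 0.05 only Slc38a3 passed, with the block and lower in Psmb8 than in Psmb5. With the block 5 of the 9 lay above 0 for Psmb8 against mSc, their median being 0.0090. The smallest p was that of Slc38a2, a glutamine transporter, at 0.11 (SE 0.05, adjusted p = 0.472). Of 19 further fate factors 17 were tested by edgeR, and 0 were called or had an unadjusted p under 0.05 in any comparison of either fit. Their blocked median for Psmb8 against mSc was -0.01, with 8 of the 17 above 0. For Psmb5 against mSc the smallest p of each list belonged to Slc38a3 at 0.10 (SE 0.05, adjusted p = 0.752) and Prox1 at 0.18 (SE 0.10, adjusted p = 0.769), and for Psmb8 against Psmb5 that of the GABA handling list belonged to Slc38a3 at -0.11 (SE 0.05, adjusted p = 0.644).

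Among 22 interneuron subtype and migration genes 21 were tested, and Lamp5 and Crhbp were called, both with the block and for Psmb8 against mSc. Without the block they had -0.36 (SE 0.27) and 0.73 (SE 0.39), each with an adjusted p of 1. Leaving out 1 library brought these to -0.19 without the mSc library of number 4 and to 0.35 without the Psmb8 library of number 1. Lamp5 is used as a marker of neurogliaform-type interneurons, but bulk libraries do not show which cells carried its RNA. It had a lowest, median and highest level of 12.2, 18.6 and 27.0 CPM in Psmb8, 11.8, 22.8 and 36.6 CPM in Psmb5, and 13.6, 23.0 and 39.9 CPM in mSc libraries. The groups overlapped, yet Lamp5 was lower in Psmb8 than in mSc in 6 of 6 pairs. The share of all tested genes that were lower in 6 of 6 pairs was not counted. In the blocked fit Lamp5 fell by 0.35 on the log2 scale (SE 0.07, adjusted p = 0.0317). The call was lost when number 2, 3, 4 or 6 was left out, with adjusted p-values of 0.121, 0.0763, 0.0985 and 0.0997, while its log2 fold change ran from -0.38 to -0.30 over all 6 such fits. Crhbp, the binding protein of corticotropin-releasing hormone and a marker of many Sst interneurons, had 9.19, 15.6 and 43.0 CPM in Psmb8, 6.80, 14.6 and 20.8 CPM in Psmb5, and 5.07, 13.2 and 16.9 CPM in mSc libraries as lowest, median and highest levels. It rose by 0.65 (SE 0.14, adjusted p = 0.0451) and was higher in 5 of 6 pairs. That call was lost when number 1, 2, 3, 5 or 6 was left out, with adjusted p-values of 0.118, 0.179, 0.165, 0.113 and 0.0932, while its log2 fold change ran from 0.46 without number 1 to 0.83 without number 4 over all 6 such fits. DESeq2 and limma-voom with the block called both genes.

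For Psmb8 against mSc, 18 of the 21 subtype genes lay above 0 in the blocked fit, with a median of 0.10. At an unadjusted p under 0.05 and with the block, 8 were higher and 1 lower, against 5.44% and 5.25% of all tested genes, and without the block 0 passed. For Psmb8 against Psmb5, 15 lay above 0 with a median of 0.11. There 8 were higher and 1 lower with the block, against 3.73% and 3.91% of all tested genes, and 1 was higher without it. Cort, the cortistatin gene of a group of interneurons, had the smallest p at 0.54 (SE 0.11, adjusted p = 0.0852). For Psmb5 against mSc the median was -0.03, and Vip, the gene of vasoactive intestinal peptide, had 0.24 (SE 0.10, adjusted p = 0.675).

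**Figure D4:**
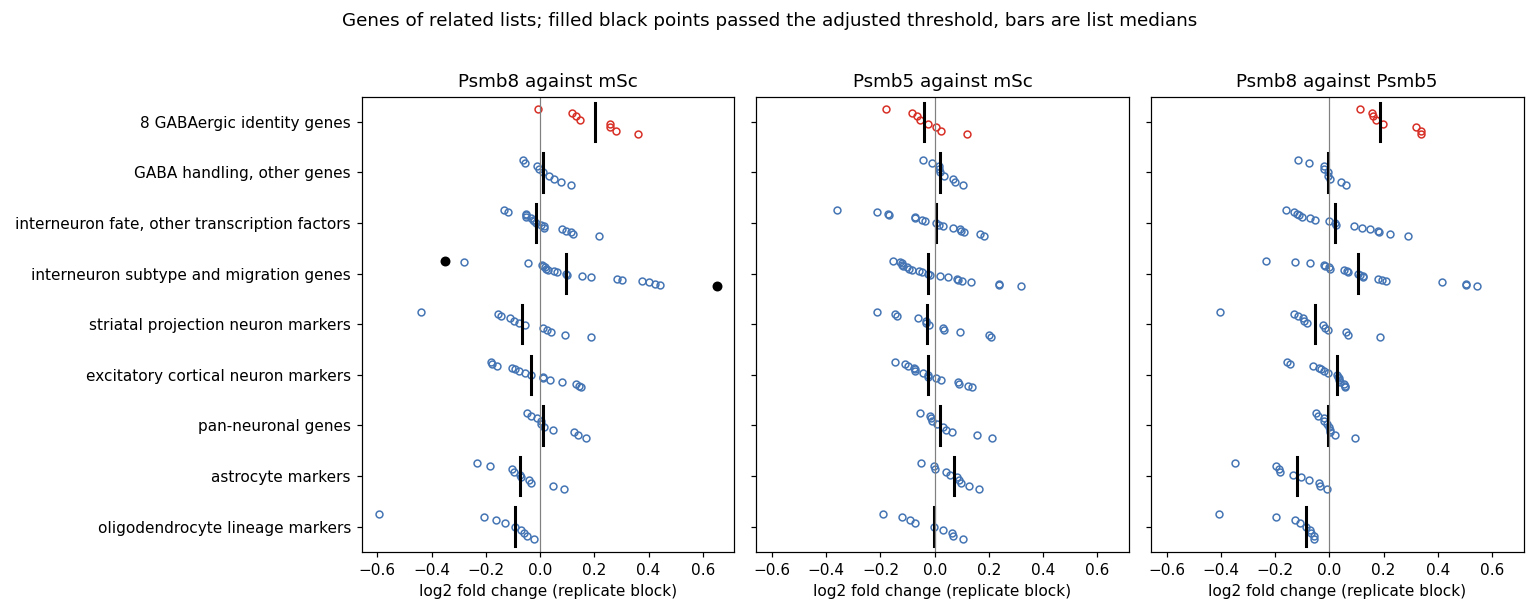
Blocked log2 fold change of each tested gene in the GABAergic set and the other lists except the microglia markers (one row per list, one panel per comparison). Points are genes, black points passed an adjusted p of 0.05 and bars are list medians; only Lamp5 and Crhbp are black, for Psmb8 against mSc.

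No marker of another cell type was called by edgeR in either fit. At an unadjusted p under 0.05 none passed without the block, and with it, for Psmb8 against mSc, 1 striatal marker and 1 astrocyte marker passed on the lower side, 2 excitatory markers on the higher and 3 on the lower side, and 3 pan-neuronal genes on the higher side. Of all tested genes 5.44% passed there on the higher and 5.25% on the lower side. With the block and for Psmb8 against mSc, the median log2 fold change was -0.07 over 12 striatal projection neuron markers, with 5 above 0 and Pdyn at -0.44 (SE 0.20, adjusted p = 0.427). It was -0.04 over 15 excitatory markers, with 7 above 0 and Camk2a, a postsynaptic kinase, at -0.16 (SE 0.04, adjusted p = 0.087). Pan-neuronal genes had a median of 0.0095, with Tubb3 at 0.13 (SE 0.04, adjusted p = 0.206). Of 10 astrocyte markers 2 lay above 0, with Gfap at -0.18 (SE 0.09, adjusted p = 0.46), and of 9 oligodendrocyte-lineage markers 0 did, with a median of -0.09. For Psmb8 against Psmb5, 0 of the 10 astrocyte markers and 0 of the 9 oligodendrocyte markers lay above 0, with medians of -0.12 and -0.08, 4 astrocyte markers had an unadjusted p under 0.05 on the lower side, where 3.91% of all tested genes did, and Gfap stood at -0.35 (SE 0.09, adjusted p = 0.225). Their summed levels overlapped, at 1510 to 4415 CPM in Psmb8, 1620 to 4374 CPM in Psmb5 and 1427 to 5214 CPM in mSc for astrocyte markers. For oligodendrocyte-lineage markers they were 266 to 894 CPM in Psmb8, 251 to 1126 CPM in Psmb5 and 266 to 1005 CPM in mSc. Of 9 microglia markers 2 were tested, Aif1 and Cd68, and Aif1 stood at -0.40 (SE 0.21, adjusted p = 0.524) for Psmb8 against mSc. In the comparison of Psmb5 with mSc the smallest p of the neuronal lists belonged to Nefm at 0.21 (adjusted p = 0.526), Meis2 at 0.09 (adjusted p = 0.624) and Cux2 at -0.15 (adjusted p = 0.624), and that of the glial lists to Gfap at 0.16 (adjusted p = 0.756), Mog at -0.12 (adjusted p = 0.863) and Aif1 at -0.31 (adjusted p = 0.809). In that of Psmb8 with Psmb5 they belonged to Nrgn at -0.15 (adjusted p = 0.386), Meis2 at -0.08 (adjusted p = 0.615) and Tubb3 at 0.10 (adjusted p = 0.589), beside Cd68 at -0.06 (adjusted p = 0.897). Whether these markers bear on the values of the 8 genes was not tested.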

How the data were processed

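Raw read counts per Ensembl gene were deposited by the authors in 1 table, with 1 column per library and no pooling. STAR 2.4 and DESeq2, and the builds GRCm39 and mm10, are named in the submitters' processing notes without a role. Its counter, strand setting and annotation were not given in the sources used here. Of the 43629 IDs, 42462 had a symbol and 1167 did not. Library totals were 15337511 to 21074229 counts, so 1 CPM is about 15 to 21 counts and counting error weighs more on the low genes. No 2 libraries of a group looked like 1 library deposited again, since the chi-square of their counts per degree of freedom ran from 2.95 to 38.6 over 45 pairs.

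The test was edgeR's quasi-likelihood test (edgeR 4.0.16, R 4.3.3) after filterByExpr by group, which kept 15671 genes and 99.9% of the counts, and TMM scaling. A single model of the 18 libraries held group as its only term, and a Benjamini-Hochberg adjusted p under 0.05, over all genes tested, counted as called. CPM refers to counts in tested genes. Standard errors were derived from the F statistic. The log2 CPM used a prior count of 0.5. The scripts were tested on simulated data. Alternatives were the replicate block, DESeq2 1.42.0, limma-voom (limma 3.58.1), other filters, and leaving out each library or number.

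The groups share replicate numbers, whose meaning the labels do not give. Deviations from the group means correlated at r = 0.42 to 0.71 in all 18 same-numbered pairs (mean 0.59). Over 90 other pairs r ran from -0.53 to 0.63 (mean -0.12), so some libraries of different number resembled each other as closely. The numbers were taken to pair the samples. Adding the block lowered the common biological coefficient of variation to 5.94%, against 17.9% unblocked.

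The 8 genes and the other lists were chosen with earlier results of these data known. Named genes are the 8, the called genes of each other list or else the one with the smallest p, and the 10 most like the 8. In the unblocked fit no gene of the other lists was called and the smallest-p genes had an adjusted p of 1, so they are not named. Some genes that the rule names are not reported here. Promoter sequences are RefSeq's for GRCm38.p6, and Dlx5 had no entry. A second ID that shares the name Dlx6os1, with 5 counts in all, was not used.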

Additional observations from a re-analysis of the deposited data

Results flagged for a closer look

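In each of the groups of 6 libraries, the highest and the lowest library were compared with the rest by the gap to the nearest other, as a share of the group's range. Of 30 groups checked, 3 passed Dixon's critical value, and chance alone flags about 1 in 20. Gad1 stood at 431 CPM in the Psmb8 library of number 1, against 254 to 294 CPM in the other 5 libraries of that group, a gap share of 0.777. Gad2 stood at 233 CPM in the same library, against 127 to 142 CPM in the others (0.855). Gad2 also stood at 185 CPM in the Psmb5 library of number 1, against 107 to 135 CPM in the others (0.639). The 3 libraries of number 1 had the highest summed level of astrocyte markers, 4374 to 5214 CPM against 1427 to 2031 CPM elsewhere, and the part of this in the flagged values was not tested.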

How the results depend on the processing

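With the low-count filter and all libraries, the replicate block changed no call among the 8 genes, and no list gene other than Lamp5 and Crhbp was called with it. All 8 genes lay within the tested set. Counting error weighs more on Dlx2 and Dlx5, at a few CPM, than on the others, and its share of their spread was not computed. The labels do not say whether the numbers mark cultures, animals or runs. Genes called for Psmb8 against mSc numbered 1 without the block, 2 with DESeq2, 51 with the replicate block, 138 with the block and DESeq2, 62 with the block and limma-voom and 321 with the block and no low-count filter. They numbered 9 to 59 with the block and 1 number left out, 2 with the block and without both numbers 3 and 6, and 1 to 2 unblocked with 1 library left out. For Psmb5 against mSc they numbered 1 without the block. With the block they numbered 13 with DESeq2, 140 with no filter, 2 without numbers 3 and 6, and 1 to 3 with 1 number left out. For Psmb8 against Psmb5 they numbered 2 without the block and 4 with DESeq2 unblocked. With the block they numbered 6, or 26 with DESeq2, 7 with limma-voom and 166 with no filter. In blocked fits they numbered 4 without numbers 3 and 6, and 4 to 20 with 1 number left out.

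With the block and no filter, 3 of the 8 genes were called for Psmb8 against mSc (Gad1 at an adjusted p of 0.0356, Dlx6os1 at 0.0446, Lhx6 at 0.0265), 1 for Psmb5 against mSc (Slc32a1, 0.0105) and 3 for Psmb8 against Psmb5 (Gad1 0.000532, Slc32a1 0.0292, Lhx6 0.00178). With the block and 1 number left out, 0 to 1 were called in the comparisons of Psmb8. The cause was not tested. The median of the 8 lay between 0.09 and 0.25 (Psmb8 against mSc), -0.087 and 0.071 (Psmb5 against mSc; 0.071 without the mSc library of number 2) and 0.06 and 0.29 (Psmb8 against Psmb5) with 1 library left out.

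Some signs turned. With 1 library left out and no block, Psmb8 against mSc ran from -0.024 to 0.248 for Gad2 and from -0.17 to 0.10 for Slc32a1. Psmb5 against mSc ran from -0.14 to 0.035 for Gad1, -0.14 to 0.080 for Gad2, -0.067 to 0.088 for Dlx1, -0.25 to 0.064 for Dlx2, -0.09 to 0.13 for Dlx5, -0.20 to 0.11 for Lhx6 and -0.27 to 0.065 for Lamp5. Psmb8 against Psmb5 ran from -0.0051 to 0.29 for Gad2. In blocked fits with 1 number left out, Gad2 kept its sign in both comparisons of Psmb8. It ran from 0.08 to 0.16 against mSc and from 0.12 to 0.18 against Psmb5. Unblocked, Slc32a1 for Psmb8 against mSc was -0.0041 with no filter and -0.0011 with a minimum of 5 CPM. With the block it was -0.0089, or -0.0107 with DESeq2, -0.0144 with limma-voom and -0.0158 with no filter. In blocked fits it was -0.071, -0.0082, -0.054 and -0.035 without number 1, 2, 3 or 6, and -0.10 without numbers 3 and 6. Dlx1 for Psmb5 against mSc was 0.0052 with the block, 0.0071 with the block and DESeq2, and 0.0048 with the block and no filter. In blocked fits it was 0.028, 0.041 and 0.039 without number 1, 2 or 5. Dlx5 for the same comparison, also with the block, was -0.0034, -0.034 and -0.093 without number 1, 2 or 3 and -0.093 without numbers 3 and 6. The number of the 8 genes that differed between replicate numbers was 8 also with limma-voom and without number 1, and 7 of 7 at a minimum of 5 CPM.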
